A study of Mus musculus with 6 samples.

Results

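The genes described here encode the MYC/MAX/MXD transcription factor network. They were taken as a list of 10 genes by symbol (*Myc*, *Mycn*, *Max*, *Mnt*, *Mxd1*, *Mxd3*, *Mxd4*, *Mxi1*, *Mlx* and *Mga*) among the 54838 genes of the count table, and all 10 passed the filter on low counts that left 11092 genes for testing. The samples were 3 mice given vehicle and 3 mice given AG636, an inhibitor of the pyrimidine synthesis enzyme DHODH, at 100 mg/kg body weight 2 times a day by oral gavage. Every mouse was a sub-lethally irradiated Ptprca recipient carrying the same transplanted C57BL/6 leukemia, called I1DN, whose cells hold IDH1R132H, DNMT3AR882H and NrasG12D. These alleles were introduced together as constructs into blood stem and progenitor cells taken from fetal liver, so vehicle and AG636 samples share them and no sample lacks them. The model is thus driven by exogenous alleles, and the mice received frozen cells of an established leukemia, so they are separate hosts and not independent leukemias. AML cells were sorted from bone marrow and spleen as an immature population, described for these cells as cKit+CD11b- in one text of the study and as high in cKit and low in CD11b in a supplementary one. The length of treatment is not in the labels, and the same texts differ on it. The comparison asks whether the genes for the MXD repressors changed with AG636 where *Myc* itself did not.

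Proteins of this network share a basic helix-loop-helix zipper, and most of them bind DNA only as a pair with MAX. MYC and MYCN with MAX activate genes of ribosome production, nucleotide synthesis and cell growth, while MXD1, MXI1, MXD3, MXD4 and MNT compete for MAX and recruit the SIN3 corepressor to the same site. That site is the E-box, CACGTG, which reads the same on both strands. MXD genes are known to be turned on as blood cells stop dividing and mature, and MYC is a common driver of leukemic growth. MGA is a very large protein that also pairs with MAX and belongs to a Polycomb repressor complex, and MLX pairs with MLXIP and MLXIPL, which sense sugars, as well as with some MXD proteins.

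The E-box is itself found in promoters of the network. RefSeq promoters (GRCm38.p6, 250 bases before to 50 after the start) were at hand for 9 of the 10 genes, all but *Myc*, and 4 of these 9 held CACGTG. The share among all 8424 tested genes with a promoter was 12.3%, and among all 32851 promoters of that length it was 7.15%. The stretches of 30 bases around each match are shown with the E-box in capitals, to show where the letters that network proteins recognise stand. A match describes the letters and was not measured as binding.
*Max*, chr12:76962234-76962263, minus strand: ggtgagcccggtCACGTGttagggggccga
*Mnt*, chr11:74830789-74830818, plus strand: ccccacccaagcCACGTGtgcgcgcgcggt
*Mlx*, chr11:101087238-101087267, plus strand: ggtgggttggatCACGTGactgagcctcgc
*Mxd4*, chr5:34187912-34187941, minus strand: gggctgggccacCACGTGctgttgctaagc
In *Max* the E-box spans the RefSeq start itself, from base -3 to base 3. In the annotation used for counting, *Max* begins at 76962201, so by that start the E-box lies wholly before it. In *Mlx* its first base lies at -40, in *Mnt* at -123 and in *Mxd4* at -219. No CACGTG was found in the windows of *Mycn*, *Mxd1*, *Mxd3*, *Mga* or any of the 3 starts of *Mxi1*.

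Of the 5 network genes that rose with AG636 (*Mycn*, *Mxd1*, *Mxd3*, *Mxd4* and *Mxi1*), *Mxd4* alone had the E-box in its window, against 3 of the 4 with a promoter that did not pass the test. The whole window of *Mxd4*, chr5:34187661-34187960 on the minus strand, is shown because this gene had the largest rise among the repressors.
*Mxd4* promoter: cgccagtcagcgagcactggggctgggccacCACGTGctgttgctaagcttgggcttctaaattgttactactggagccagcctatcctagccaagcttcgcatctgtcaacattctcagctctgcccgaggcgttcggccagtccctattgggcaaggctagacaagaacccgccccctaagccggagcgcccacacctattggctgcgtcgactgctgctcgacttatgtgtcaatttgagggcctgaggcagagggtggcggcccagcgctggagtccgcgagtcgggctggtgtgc

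The RNA of all 4 MXD family genes and of *Mycn* rose with AG636, while *Myc*, *Max*, *Mnt*, *Mlx* and *Mga* did not pass the test. Thus 5 of the 10 genes were called, where 21.3% of all genes tested were. All 5 were called higher, where 10.3% of all genes tested were, and 0 were called lower, where 11.0% were (edgeR's quasi-likelihood test, adjusted p under 0.05 over all genes). At an unadjusted p under 0.05, 0 of the 10 were lower, and DESeq2 and limma-voom also called 0 lower and 5 higher. The 5 increases ran from 1.45-fold for *Mxi1* to 3.38-fold for *Mycn*. The groups did not overlap in 6 of the 10 genes, against 41.1% of all genes tested. In 5 of them, those that rose, every AG636 sample lay above every vehicle sample, against 20.5% of all genes tested. Leaving out vehicle replicate 1 or AG636 replicate 1 left 3 of these genes called, and leaving out vehicle replicate 2 or AG636 replicate 3 left 2, which were *Mxd1* and *Mxd4*. In bulk RNA, a change in the share of cells that express a gene and a change in RNA per cell cannot be told apart.

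**Figure D1:**
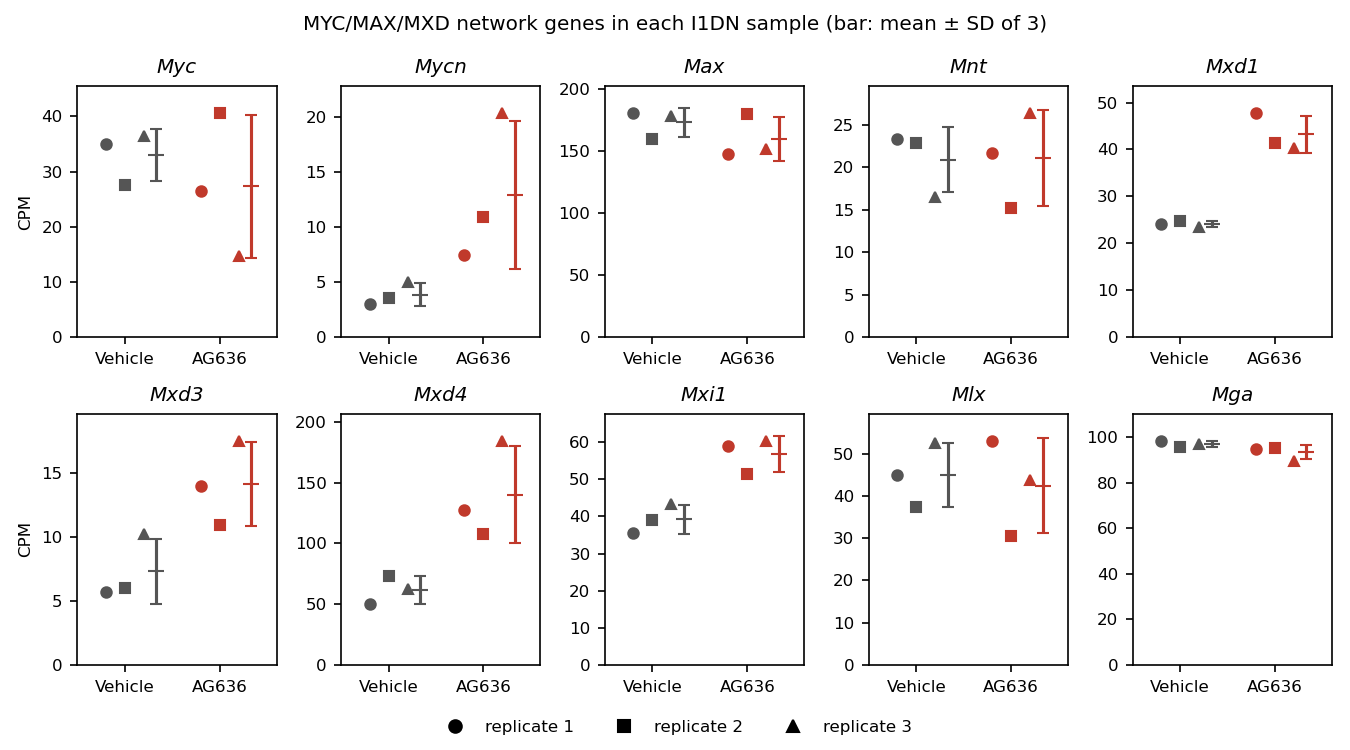
Level of each network gene in CPM (counts scaled to a library of 1000000, vertical axes from 0) in the 3 vehicle (grey) and 3 AG636 (red) samples, with one symbol per replicate number and a bar for mean ± SD. The groups separate upwards for Mycn, Mxd1, Mxd3, Mxd4 and Mxi1, while the AG636 samples of Myc lie between 14.7 and 40.6 CPM, below and above the vehicle samples.

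Markers of mature myeloid cells were higher in the same AG636 samples. Of 11 neutrophil markers 8 were called higher and 0 lower, against 10.3% and 11.0% of all genes tested, with 0 lower also at an unadjusted p under 0.05 and in DESeq2 and limma-voom. Their summed level was between 1054 and 2404 CPM with vehicle and between 2943 and 5956 CPM with AG636, with none at 0. *Itgam*, which encodes the CD11b that the sort selected against, had 12.1, 18.3 and 27.0 CPM with vehicle and 60.1, 31.3 and 41.2 CPM with AG636. The neutrophil sum was highest in AG636 replicate 1, as was *Mxd1*, and lowest of the AG636 group in replicate 3, where *Mxd3*, *Mxd4*, *Mxi1* and *Mycn* were highest. Most of that sum was *S100a8* and *S100a9*, with 3150 and 2158 of the 5956 CPM in AG636 replicate 1. Single markers differed in order within the AG636 group. *S100a9*, *Ngp*, *Ltf* and *Cxcr2* ranked as the sum did, while *Camp* and *Retnlg* were highest in replicate 2, and *S100a8* and *Itgam* were lowest there. Monocyte and macrophage markers, 11 in number, summed to between 99.7 and 160 CPM with vehicle and between 204 and 329 CPM with AG636, highest in replicate 3, and 2 of the 9 tested were called higher, against the same 10.3%. The 10 mast cell and basophil markers, of which *Tpsab1* and *Cma1* were at 0, overlapped between groups (578 to 952 and 876 to 1658 CPM). Of the 7 tested, 2 were called higher, against the same 10.3%, with 1 called higher in DESeq2 and 1 in limma-voom. Within each group the sum of this list ranked the samples as *Mxd4* did. It was highest in vehicle replicate 2 and AG636 replicate 3 and lowest in vehicle replicate 1 and AG636 replicate 2. *Cpa3*, with 934 of the 1658 CPM in AG636 replicate 3, weighed most in the sum and had the same order. Of the other markers with a mean of at least 20 CPM, *Hdc* had this order too. *Mcpt8*, *Ms4a2* and *Prss34* were highest of the AG636 group in replicate 1, and *Gata2* was highest of the vehicle group in replicate 3. The 8 erythroid markers, 2 of them called lower where 11.0% of all genes were, ranged from 1693 to 4772 CPM with vehicle, highest in replicate 1, and from 1966 to 3274 CPM with AG636. B cell markers summed to between 13.4 and 26.9 CPM with vehicle and between 29.1 and 43.7 CPM with AG636, T cell markers to at most 14.9 CPM, and stromal and endothelial markers to at most 259 CPM, with *Cdh5* at 0. Of these last lists *Pdgfrb*, a receptor of stromal cells, was called higher (log2 fold change 0.93, adjusted p = 0.0455). It was 1 of the 2 stromal and endothelial markers tested, against 10.3% of all genes tested. Of B cell markers 0 of 2, and of T cell markers 0 of 1, were called by edgeR, DESeq2 or limma-voom or had an unadjusted p under 0.05. For edgeR, 21.3% of all genes tested were called in either direction. Of the markers of the sorted immature cells, *Kit*, *Cd34* and *Myb* were detected in every sample and did not pass the test (adjusted p = 0.550, 0.161 and 0.878), *Ptprc*, a gene of all leukocytes, went from 116 ± 15.5 to 182 ± 23.3 CPM (adjusted p = 0.0142, and 0.0577 without AG636 replicate 3), and *Flt3* had 54 counts and was not tested. The part of these cell types in the changes of the network genes and of the gene lists was not tested.

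The vehicle samples had 34.9, 27.6 and 36.4 CPM of *Myc*, the founding activator of the network, and the AG636 samples had 26.5, 40.6 and 14.7. AG636 replicate 2 thus had the highest and AG636 replicate 3 the lowest value of all 6 samples, and the groups overlap. The log2 fold change was -0.27 with a 95% interval from -0.95 to 0.41 (adjusted p = 0.551), a range that holds falls as well as rises. It moved to 0.03 without AG636 replicate 3 and to -0.68 without AG636 replicate 2, and no alternative called it. *Myc* lies on chromosome 15 from 61985391 to 61990374 (mm10).

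*Mycn*, the paralog that can stand in for *Myc*, was called higher. It had 3.03, 3.53 and 5.01 CPM in the vehicle samples and 7.43, 10.9 and 20.4 CPM in the AG636 samples. AG636 replicate 3, the sample with the least *Myc*, had the most *Mycn*. The mean rose from 3.86 ± 1.03 to 12.9 ± 6.70 CPM (SD, n = 3), an increase of 1.76 ± 0.39 on the log2 scale (SE, adjusted p = 0.0143), and 0.802% of the genes tested had a higher one. The gene had 264 counts in all, 68 with vehicle and 196 with AG636, and the adjusted p was 0.0596 without AG636 replicate 3 and 0.0624 without vehicle replicate 2. *Mycn* lies on chromosome 12 from 12936093 to 12941914. The third paralog, *Mycl*, was outside the list and had 3 counts in all 6 samples together, no more than the 3 counts per sample, or 0.392 to 0.637 CPM, taken as the floor of detection. Summed, *Myc* and *Mycn* had 38.0, 31.1 and 41.4 CPM with vehicle and 34.0, 51.6 and 35.1 CPM with AG636, so the groups overlap also in their total.

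*Mxd4*, one of the MAX-binding repressors and the MXD gene with the most transcript ends here, had the largest rise of the repressors. The vehicle samples had 50.1, 73.2 and 62.7 CPM and the AG636 samples 128, 108 and 185 CPM. All AG636 samples were above all vehicle samples. The increase was 1.17 ± 0.21 on the log2 scale (SE, adjusted p = 0.00678), or 2.26-fold, and 3.47% of the genes tested had a higher one. It stayed between 0.92 and 1.33 in all 13 alternatives and was called in each of them. *Mxd4* lies on chromosome 5 from 34173883 to 34187720 and had 3244 counts.

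*Mxd1*, the repressor long known to appear as myeloid cells mature, had 24.1, 24.7 and 23.4 CPM with vehicle and 47.8, 41.4 and 40.4 CPM with AG636. The vehicle samples were nearly equal and the gap to the lowest AG636 sample was far wider than the spread within either group. Its increase of 0.84 ± 0.15 on the log2 scale (SE, adjusted p = 0.00685) was called in all 13 alternatives, with values between 0.76 and 0.93. It lies on chromosome 6 from 86647042 to 86669161.

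*Mxi1*, also known as MXD2 and a repressor of *Myc*-driven growth, rose least. It had 35.5, 39.0 and 43.3 CPM with vehicle and 58.8, 51.3 and 60.4 CPM with AG636, with no overlap. It rose by 0.54 ± 0.15 on the log2 scale (SE, adjusted p = 0.0285), and by 0.46 to 0.62 in the alternatives. The call was lost in 4 of the 6 fits that left out a sample, with adjusted p of 0.0998 without vehicle replicate 1, 0.0830 without vehicle replicate 2, 0.0880 without AG636 replicate 1 and 0.103 without AG636 replicate 3. *Mxi1* lies on chromosome 19 from 53310506 to 53375810, and counts at transcript ends do not separate its 3 starts.

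*Mxd3*, the MXD family member known to be expressed in dividing cells, had the fewest transcript ends of the 4. The vehicle samples had 5.71, 6.02 and 10.2 CPM and the AG636 samples 14.0, 10.9 and 17.6 CPM, so vehicle replicate 3 and AG636 replicate 2 nearly met. It rose by 0.97 ± 0.29 on the log2 scale (SE, adjusted p = 0.0418), from 339 counts in all. Leaving out vehicle replicate 1, vehicle replicate 2, AG636 replicate 1 or AG636 replicate 3 raised the adjusted p to 0.120, 0.141, 0.0957 and 0.156. *Mxd3* lies on chromosome 13 from 55325168 to 55329823, and 105 bases of its exons overlap *Prelid1* on the opposite strand, a gene with 8263 counts. The use of strand in counting is not given in the sources used here, so reads of the shared bases cannot be assigned to one of them. *Prelid1* itself did not pass the test, at -0.08 ± 0.12 on the log2 scale (SE, adjusted p = 0.641).

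*Mnt*, the broadly expressed repressor that is related to the MXD proteins and also binds SIN3, had 23.4, 22.9 and 16.5 CPM with vehicle and 21.7, 15.3 and 26.4 CPM with AG636. The groups overlap, and the log2 fold change was 0.01 with a 95% interval from -0.51 to 0.53 (adjusted p = 0.980). *Mga* had 98.6, 95.7 and 97.0 CPM with vehicle and 94.9, 95.5 and 89.9 CPM with AG636. Its groups did not overlap, which 20.6% of all genes tested showed in the downward direction, but the step was small (log2 fold change -0.06, 95% interval -0.31 to 0.19, adjusted p = 0.751). With library size alone as the scaling, its log2 fold change was 0.03. *Mnt* lies on chromosome 11 from 74830920 to 74845725 and *Mga* on chromosome 2 from 119897228 to 119969581.

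*Max*, the common partner, had the highest mean level of the list in both groups. It had 181, 160 and 179 CPM with vehicle and 147, 180 and 152 CPM with AG636, and the groups overlap (log2 fold change -0.11, 95% interval -0.39 to 0.16, adjusted p = 0.535). *Mlx*, the center of the neighbouring branch, had 44.9, 37.3 and 52.4 CPM with vehicle and 53.1, 30.5 and 43.8 CPM with AG636 (log2 fold change -0.08, 95% interval -0.55 to 0.40, adjusted p = 0.823). Of its exons 385 bases overlap *Psmc3ip* on the opposite strand, which had 562 counts against 1418 for *Mlx* and a log2 fold change of -0.71 (adjusted p = 0.0363). *Max* lies on chromosome 12 from 76937269 to 76962201 and *Mlx* on chromosome 11 from 101087277 to 101092207.

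**Figure D2:**
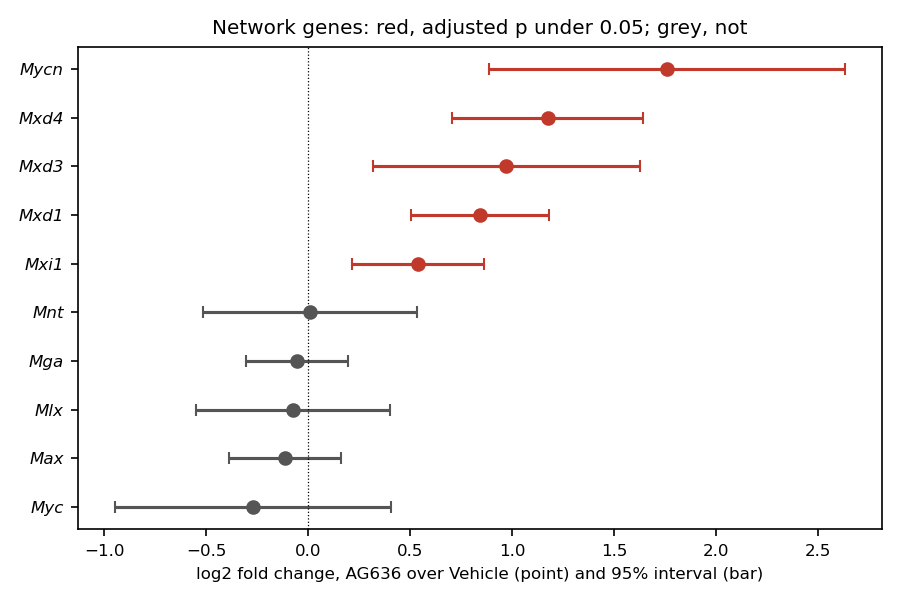
Log2 fold change of AG636 over vehicle (horizontal axis) with its 95% interval for each network gene, in red where the adjusted p is under 0.05. The intervals of Mycn, Mxd4, Mxd3, Mxd1 and Mxi1 lie above 0, and those of Mnt, Mga, Mlx, Max and Myc span it.

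A call for one gene and none for another does not show that they differ, so the ratio of each repressor or competitor to *Myc* was taken within each sample. Relative to *Myc*, *Mxd4* was higher by 1.52 on the log2 scale in the AG636 group, *Mxd3* by 1.32, *Mxd1* by 1.20 and *Mxi1* by 0.91, and *Mnt* and *Mga* by 0.37 and 0.32. Only for *Mxd1* did the groups not overlap, with log2 ratios of -0.53, -0.16 and -0.63 with vehicle and 0.84, 0.03 and 1.43 with AG636. For *Mxd4* they met, since vehicle replicate 2 and AG636 replicate 2 both had 1.40, against 0.52 and 0.78 in the other vehicle samples and 2.25 and 3.61 in the other AG636 samples. The exact permutation test, two-sided, gave p = 0.1 for *Mxd1*, the smallest that 3 samples against 3 allow, p = 0.2 for *Mxd3*, *Mxd4* and *Mxi1*, 0.7 for *Mnt* and 0.6 for *Mga*. Adjusted over the 6 genes compared, the lowest p of this permutation test was 0.3. A design of this size thus cannot show by this test that an MXD gene changed otherwise than *Myc*, which itself ran from 14.7 to 40.6 CPM within the AG636 group. Without AG636 replicate 3 the difference fell to 0.93 for *Mxd4*, 0.87 for *Mxd1*, 0.78 for *Mxd3* and 0.48 for *Mxi1*, and turned to -0.18 for *Mnt* and -0.036 for *Mga*. The ratio of *Mycn* to *Myc*, added after its rise was seen, went from -3.38, -2.88 and -2.76 to -1.78, -1.86 and 0.46. The same permutation test gave p = 0.1 for it, outside the adjustment.

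**Figure D3:**
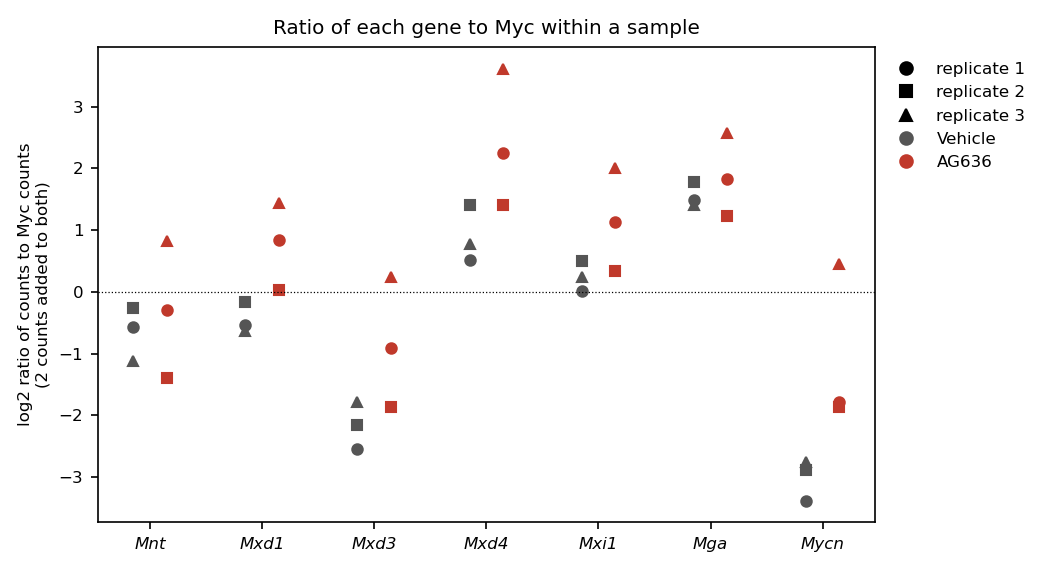
Log2 ratio of the counts of each gene to those of Myc in the same sample (vertical axis), for vehicle (grey) and AG636 (red) samples with one symbol per replicate number. AG636 replicate 3 is the highest and AG636 replicate 2 the lowest AG636 sample in every column. With the 2 counts added here, the groups part only for Mxd1 and Mycn.

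Because the libraries count transcript ends, levels of different genes were set side by side without division by length. Among the 8 genes whose proteins compete for MAX, *Mxd1*, *Mxd3*, *Mxd4* and *Mxi1* together made up 41.9%, 48.8% and 47.4% of the summed CPM in the vehicle samples and 62.3%, 56.6% and 66.7% in the AG636 samples. The mean share was 46.1 ± 3.66% with vehicle and 61.8 ± 5.06% with AG636 (SD, n = 3). Their summed level went from 133 ± 15.1 to 254 ± 46.0 CPM, while the sum of all 8 genes went from 287 ± 10.6 to 409 ± 41.2 CPM. *Mga*, the largest single share with vehicle at 33.8 ± 1.73%, had 23.0 ± 2.95% with AG636, where *Mxd4* had 33.8 ± 6.10%. *Mxi1*, although its level rose, had 13.6 ± 0.942% of the pool with vehicle and 13.9 ± 0.742% with AG636, and *Mycn* had 1.34 ± 0.322% and 3.09 ± 1.32%. *Myc* itself had 12.7%, 9.43% and 12.3% of the pool with vehicle and 6.65%, 10.9% and 3.24% with AG636, and these groups overlap. RNA shares do not measure the proteins that compete for MAX.

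**Figure D4:**
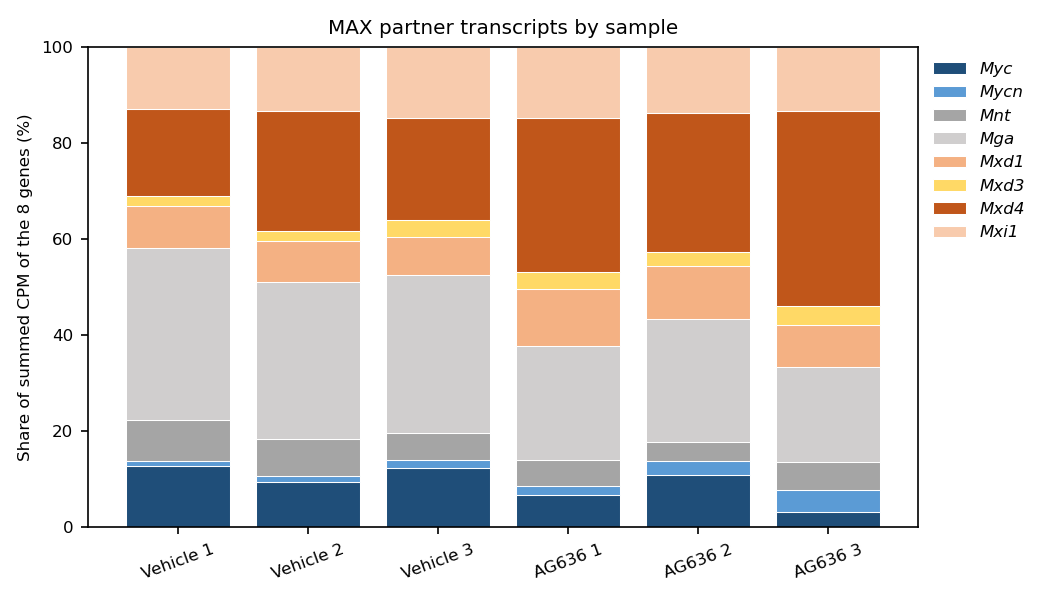
Share of the summed CPM of 8 genes whose proteins pair with MAX (vertical axis, percent), one bar per sample. The 4 MXD genes at the top of each bar take between 41.9% and 48.8% in vehicle samples and between 56.6% and 66.7% in AG636 samples.

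Across the 6 samples, log2 CPM of the 4 MXD genes and of *Mycn* moved alike, with Pearson r between 0.77 and 0.96 for each pair. These points share the 2 groups and the same libraries, so the values describe the separation of the groups as much as anything within them. *Myc* had an r of 0.88 with *Mga*, of 0.79 with *Max* and of -0.78 with *Mnt*, and AG636 replicate 3, lowest in *Myc*, was the highest of all samples in *Mnt*, *Mycn*, *Mxd3*, *Mxd4* and *Mxi1*. Along the first principal component of all genes, which carried 58.6% of the variance, the same replicate lay farthest towards the AG636 side.

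Most of the genes listed as activated by MYC fell with AG636. In a hand-written list of 60 such genes, 53 were called lower (88.3%, against 11.0% of all genes tested) and 0 higher, with 0 higher also at an unadjusted p under 0.05 and in DESeq2 and limma-voom. The median log2 fold change of the list was -0.87, against 0.03 over all genes tested. *Srm*, which makes spermidine, fell from 332 ± 54.9 to 119 ± 10.8 CPM, *Mrto4*, a ribosome assembly factor, from 179 ± 26.4 to 65.4 ± 13.7 CPM and *Hspe1*, a mitochondrial chaperonin, from 704 ± 81.0 to 328 ± 33.6 CPM (SD, n = 3). Their log2 fold changes were -1.48, -1.46 and -1.10, with adjusted p of 0.00202, 0.00234 and 0.00203. Many of these genes serve ribosome production and have other known regulators than MYC. Exons of *Hspe1* overlap those of *Hspd1* on the opposite strand over 112 bases, so reads of that stretch cannot be told apart. Without AG636 replicate 3, 35 of the 60 were called lower. CACGTG stood in the promoter windows of 16 of the 52 listed genes that had one, or 30.8%, against 12.3% of tested genes.

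Across the 6 samples the list was not ordered as *Myc* was. The median of the list, centred on each gene's mean over the 6 samples, was 0.60, 0.43 and 0.30 with vehicle and -0.37, -0.28 and -0.63 with AG636 on the log2 scale. AG636 replicate 2 had the most *Myc* of all 6 samples, and its MYC-activated genes were below those of every vehicle sample. Within the AG636 group the order of the list was that of *Myc*, with replicate 2 highest and replicate 3 lowest. Within the vehicle group it was not, since vehicle replicate 3 had the most *Myc* and the lowest list median. These are RNA values, and levels of MYC protein are not part of these data. In cultured cells of another leukemia model, the paper reports less MYC protein with AG636. The cause of the fall of the list was not tested.

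Among genes that MYC is known to repress, 10 of 12 listed passed the filter, of which 5 were called higher (against 10.3% of all genes tested) and 0 lower, with 0 lower also at an unadjusted p under 0.05 and in DESeq2 and limma-voom. They are the CDK inhibitors *Cdkn1c*, *Cdkn2c* and *Cdkn1a*, the growth arrest gene *Gadd45a* and the stress and differentiation gene *Ndrg1*. *Cdkn1c* had 0.357, 0.916 and 1.46 CPM with vehicle and 5.10, 4.12 and 3.78 CPM with AG636, an increase of 2.25 ± 0.46 on the log2 scale (SE, adjusted p = 0.0115) from 80 counts. Its lowest vehicle value rests on 2 counts, under the floor of 3. *Cdkn2c* went from 27.9 ± 4.67 to 47.3 ± 4.08 CPM and *Ndrg1* from 37.1 ± 6.25 to 60.3 ± 9.95 CPM (adjusted p = 0.0146 and 0.0226). The call of *Cdkn2c* was lost without vehicle replicate 2, AG636 replicate 1 or AG636 replicate 3, with adjusted p up to 0.0596, and that of *Ndrg1* without vehicle replicate 1, vehicle replicate 3, AG636 replicate 1 or AG636 replicate 3, with adjusted p up to 0.0939. *Cdkn1a* and *Gadd45a* are also targets of p53, so the list is not specific to MYC. The count fell to 3 without vehicle replicate 1, to 2 without vehicle replicate 2 and to 1 without AG636 replicate 1 or AG636 replicate 3.

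**Figure D5:**
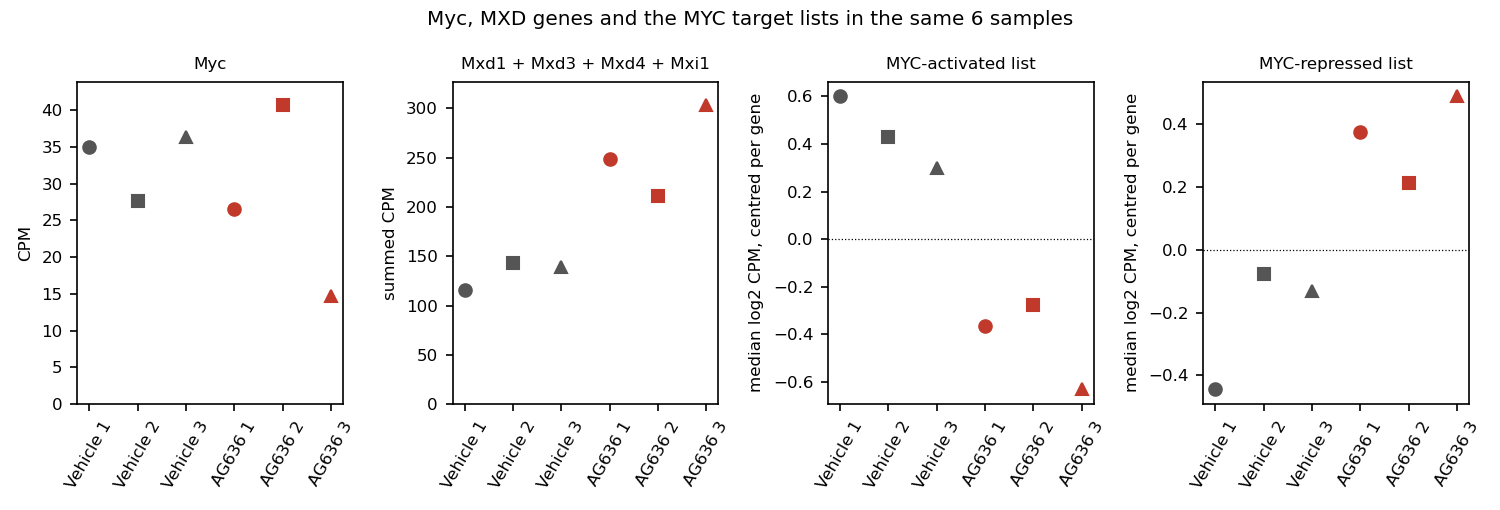
Myc (CPM), the summed CPM of the 4 MXD genes, and the median centred log2 CPM of the MYC-activated (60 genes) and MYC-repressed (10 genes) lists in the same 6 samples, vehicle in grey and AG636 in red. The groups part in the last 3 panels and overlap in that of Myc, where AG636 replicate 2 is highest at 40.6 CPM.

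In the corepressor through which MXD and MNT proteins act, 2 of 18 SIN3 complex genes were called higher (11.1%, against 10.3% of all genes tested) and 0 lower, with 0 lower at an unadjusted p under 0.05 and in DESeq2 and limma-voom, and the median log2 fold change was 0.00. *Sin3b*, a scaffold that binds MXD proteins, had 134 ± 13.3 CPM with vehicle and 181 ± 10.1 CPM with AG636 (log2 fold change 0.43, adjusted p = 0.0317), and *Arid4b*, another subunit, had 127 ± 9.85 and 164 ± 7.66 CPM (log2 fold change 0.37, adjusted p = 0.0486). Of 13 alternatives, 8 called *Sin3b* and 3 called *Arid4b*, with adjusted p up to 0.113 and 0.138 in the rest. Leaving out any sample lost *Arid4b*, and leaving out any sample but vehicle replicate 2 lost *Sin3b*. An exon stretch of 257 bases of *Arid4b* overlaps *Ggps1* on the opposite strand. In the complex that holds MGA, 0 of 13 genes were called in either direction, against 21.3% of all genes tested. At an unadjusted p under 0.05, 3 were lower and 0 higher, and 1 was called lower in DESeq2 and 0 in limma-voom. The median was -0.22, with 10 genes below 0 and 3 above. In 5 of the 13 every AG636 sample lay below every vehicle sample, against 20.6% of all genes tested.

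The calls among MYC's coactivators and the genes of its turnover were all lower. Of 18 coactivator and cofactor genes, 3 were called lower and 0 higher (0 higher also in DESeq2 and limma-voom), or 16.7% against 11.0% of all genes, with a median log2 fold change of -0.12. At an unadjusted p under 0.05, 6 were lower and 1 higher, where 2041 and 2071 of all 11092 genes tested were. In 7 of the 18 every AG636 sample lay below every vehicle sample, and in 1 above, against 20.6% and 20.5% of all genes tested. *Ruvbl1* and *Ruvbl2*, paired ATPases of chromatin remodelling and acetyltransferase complexes, fell from 145 ± 11.9 to 73.4 ± 5.44 CPM and from 66.9 ± 5.98 to 37.4 ± 3.48 CPM (log2 fold changes -0.98 and -0.84, adjusted p = 0.00254 and 0.0057), and both were called in all 13 alternatives. *Smarcb1*, a SWI/SNF subunit, had a log2 fold change of -0.54 (adjusted p = 0.0164, and 0.0606 without vehicle replicate 2). Exons of *Ruvbl2* overlap *Gys1* on the opposite strand over 310 bases.

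Among 17 genes of MYC turnover, 3 were called lower and 0 higher (0 higher also in DESeq2 and limma-voom), or 17.6% against 11.0%. At an unadjusted p under 0.05, 4 were lower and 2 higher. In 5 of the 17 every AG636 sample lay below every vehicle sample, and in 1 above, against 20.6% and 20.5% of all genes tested. Of the 17 genes, 9 had log2 fold changes above 0 and 8 below, with a median of 0.01. Among them were the nucleolar deubiquitinase *Usp36* (log2 fold change -0.71, adjusted p = 0.0158) and the chaperone-linked ubiquitin ligase *Stub1* (-0.52, adjusted p = 0.0337). *Usp36* was called in 10 of 13 alternatives, the exceptions being the fits without vehicle replicate 2, AG636 replicate 1 or AG636 replicate 3, with adjusted p up to 0.0644. *Stub1*, which shares 684 exon bases with *Jmjd8* on the opposite strand, was called in 6, with adjusted p up to 0.115 in the rest. Leaving out any sample but vehicle replicate 1 lost its call, as did library size alone as the scaling (adjusted p = 0.0648).

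On the MLX branch, *Mlxip*, the glucose-sensing partner of MLX also called MondoA, had 16.4, 18.7 and 17.8 CPM with vehicle and 22.7, 28.9 and 22.7 CPM with AG636. The groups did not overlap, but the log2 fold change of 0.49 did not pass (SE 0.18, adjusted p = 0.0789, and 0.0478 with library size alone as the scaling). *Mlxipl*, the liver carbohydrate sensor, had 4 counts in all. Only 2 targets of this branch were listed, and 2 were called higher, where 10.3% of all genes tested were. *Txnip*, an inhibitor of glucose uptake, went from 189 ± 64.8 to 425 ± 65.3 CPM (log2 fold change 1.17, adjusted p = 0.00890). The related arrestin *Arrdc4* went from 3.53 ± 0.935 to 10.1 ± 4.66 CPM (log2 fold change 1.52, adjusted p = 0.0200). The call of *Arrdc4* was lost without vehicle replicate 1 or vehicle replicate 2, with adjusted p up to 0.0752.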

How the data were processed

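RNA from sorted I1DN leukemia cells of 3 vehicle-treated and 3 AG636-treated mice was sequenced from transcript 3′ ends (QuantSeq). The authors deposited raw counts per gene and sample, without normalization. Per the submitters' processing notes, reads were trimmed with cutadapt 1.9.1, mapped to mm10 (GRCm38) with HISAT2 2.0.4 and counted with featureCounts of Subread 1.5.0-p3, while the paper names other versions of cutadapt and Subread. The annotation release, strand use and handling of multi-mapped reads are not given in the sources used here. The deposited gene length, in bases, was not used.

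Samples held between 4634963 and 7906589 counts, at which 3 counts correspond to 0.392 to 0.637 CPM, a floor that covers counting error only. The 10 genes with most counts took 7.26% to 8.39% of a sample. Chi-square statistics per degree of freedom between replicates were 6.76 to 16.0, all well above the value of pure counting noise.

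Symbols came from GENCODE for 54723 of 54838 identifiers. Genes were filtered with filterByExpr (minimum count 10, minimum total 15), scaled with TMM and compared in R 4.3.3 with the quasi-likelihood test of edgeR 4.0.16, Benjamini-Hochberg adjusted over all genes, at a threshold of 0.05. Standard errors are the log2 fold change divided by the square root of F. CPM use scaled library sizes. Ratios to *Myc* had 2 counts added to both genes, or 0.5 as an alternative, and were compared by an exact permutation test. The tests were run on simulated data with known changes. The network genes, the gene lists and the tests were chosen with earlier results of these data known, so lists are described by counts and medians without a test. Named genes are all members, the MLX partners and targets, and up to 3 called genes per direction of each other list by lowest p, of which 1 is not reported here. *Cdkn1a*, *Gadd45a*, *Prelid1*, *Psmc3ip*, *Cpa3* and *Pdgfrb* were named after their values were seen, as were the single markers given by the order of their samples. Alternatives were DESeq2 1.42.0, limma-voom 3.58.1, other scalings and filters, a replicate block and leaving out each sample. Promoters came from RefSeq (GRCm38.p6), and protein sequences were not analysed here.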

Additional observations from a re-analysis of the deposited data

How the results depend on the processing

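Taking each network gene under each alternative, 120 values kept their side of the threshold and 10 lost a call, all of these in fits without a sample. The 5 members called higher stayed at 5 in the 7 other alternatives and ranged from 2 to 5 without a sample. Over all genes, 1146 were called higher and 1222 lower, and these counts ranged from 399 to 1074 and from 452 to 1298 without a sample, lowest without AG636 replicate 3. With library size alone, 61.9% of calls were higher in place of 48.4% (1483 higher and 913 lower), and the median of all genes moved from 0.03 to 0.12. MYC-activated genes called lower ranged from 35 to 53 without a sample, and MYC-repressed genes called higher from 1 to 6. The difference from *Myc* ranged from -0.18 to 0.92 for *Mnt* and from -0.036 to 0.64 for *Mga*. *Clca3a1* had a log2 fold change of 0.04, which turned to -2.50 without AG636 replicate 2 and was 0.63 without AG636 replicate 3. The cause was not tested.

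Same-numbered samples do not share a mouse, and their deviations from the group means correlated at -0.06, -0.18 and 0.22. With 3 samples per group, these values cannot show whether the numbers mark a shared batch. Vehicle replicates 1 and 2 correlated best with AG636 replicates 2 and 3, and vehicle replicate 3 with the AG636 sample of its own number. With a replicate block, 914 genes were called higher and 1046 lower, 5 members higher and 0 lower, 51 MYC-activated genes lower and 5 MYC-repressed genes higher, and *Mxi1* and *Mxd3* had adjusted p of 0.0456 and 0.0338 in edgeR's quasi-likelihood test. *Stub1* and *Arid4b* lost their calls with the block (adjusted p = 0.0581 and 0.0634). *Mycn* and *Mxd3* rest on 264 and 339 counts, and the part of depth in their lost calls was not tested.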

Other observations

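The genes whose log2 CPM followed *Myc* most closely over the 6 samples, among 11091 ranked, were *Uspl1* (Pearson r = 0.991), *Snord65* (0.984), *Nudcd2* (0.981), *Clca3a1* (0.979) and *Letm1* (0.977). None of these 5 passed the test between the groups in edgeR's quasi-likelihood test, at adjusted p from 0.479 to 0.978. Exons of *Uspl1* overlap *Hmgb1* on the opposite strand over 42 bases. Those most like *Mxd4* were *Cd200r3* (0.997), *A730063M14Rik* (0.995), *Anp32a* (0.995), *Bbc3* (0.994) and *Hist3h2a* (0.992), of which *Cd200r3*, *Bbc3* and *Hist3h2a* were called higher, with log2 fold changes of 1.30, 0.91 and 0.95. The calls of *Bbc3* and *Hist3h2a* were lost without vehicle replicate 1 or AG636 replicate 3, with adjusted p up to 0.0619 and 0.0707. With so many genes ranked over so few samples, these values are descriptions only.

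Other lineage genes in the same libraries moved in both directions. *Gata2*, a transcription factor of stem and mast cells, had 151, 175 and 209 CPM with vehicle and 272, 290 and 340 CPM with AG636 (log2 fold change 0.75, adjusted p = 0.00896 in edgeR's quasi-likelihood test). *Cd68*, a lysosomal protein of phagocytes, had 19.4, 29.7 and 33.9 CPM with vehicle and 91.5, 67.2 and 87.0 CPM with AG636 (log2 fold change 1.57, adjusted p = 0.00298). *Klf1*, a regulator of red cell precursors, was lower, with a log2 fold change of -1.10 (adjusted p = 0.0238), while *Hbb-bs* had 0.11 (adjusted p = 0.842). Each of *Gata2*, *Cd68* and *Klf1* had the lowest p of its marker list, so they do not stand for their lists. Of these lists, 2 of 7 mast cell and 2 of 9 monocyte markers tested were called higher, against 10.3% of all genes tested. Of 8 erythroid markers, 2 were called lower, against 11.0%.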
